A study of Mus musculus with 24 samples.

Results

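The time course described here followed gene expression in whole back skin of the group named EN, mice whose daily meal came in the first hours of darkness. Its members are the 8 libraries labelled EN, of 24 libraries in the series. They were taken at ZT0, ZT4, ZT8, ZT12, ZT16, ZT20, ZT24 and ZT28, where ZT counts the hours that had passed since the lights came on, so ZT24 and ZT28 return to the clock times of ZT0 and ZT4. EN mice had food from ZT12, when lights went off, to ZT16. The other groups, used here only where a rhythm is set against theirs, had food from ZT0 to ZT4 (ED) or from ZT5 to ZT9 (MD), with 8 libraries each. All animals were wild-type male C57BL/6NCrl mice, an inbred strain, at 8 weeks of age, housed with lights on for 12 h and off for 12 h and fed on schedule for 18 to 21 days. Their skin was described as being in telogen, when hair follicles rest. Markers of growing follicles were nevertheless high in the ZT0 pool, as given below. Each library came from whole skin RNA pooled from 2 to 4 animals, and there was 1 pool per time. The title of the series refers to UVB light, but no library here is labelled as irradiated.

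The circadian clock is a loop in which the activators BMAL1 (gene Arntl), CLOCK and NPAS2 switch on their own repressors, the PER and CRY proteins, and the REV-ERB receptors (Nr1d1 and Nr1d2), which in turn switch off Arntl. Light sets the clock of the brain, while feeding time and hormones such as glucocorticoids can set clocks in other organs. In skin, rhythms of cell division, DNA repair and barrier function are known, and skin holds many tissues: epidermis, dermis, fat, muscle and hair follicles.

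Total exon counts were 13751005 to 26316851 per library, lowest at ZT16 and highest at ZT20. Keratinocyte markers summed to between 6593 and 8886 CPM (exon counts scaled to the size of the library with TMM), so the labelled tissue was present in every pool. The markers were not even in all pools. Of 8 markers of the growing (anagen) hair follicle, 7 were in the table, and they summed to 1486 CPM at ZT0, 12.2 CPM at ZT24 and 1.62 to 2.98 CPM at the other times. All 5 liver markers were detected and summed to 89.1 CPM at ZT12, 30.4 CPM at ZT20 and 4.17 to 13.0 CPM elsewhere. The 5 adipocyte markers summed to 2039 CPM at ZT12 and to between 968 and 1391 CPM at the other times, and the 5 skeletal muscle markers ranged from 7579 CPM at ZT8 to 18522 CPM at ZT4. In bulk skin, fewer cells of a type and less RNA per cell cannot be told apart, and with 1 pool per time the make-up of a pool and its time of day cannot be told apart either.

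A gene was called rhythmic when the cosine and sine terms of a 24 h curve, fitted to the 8 libraries alone with edgeR's quasi-likelihood F test, had a Benjamini-Hochberg adjusted p under 0.05 over all genes tested. The error in this test is the departure of the pools from the curve, so p-values measure only the spread between these pools. By this test 303 of 15566 genes were rhythmic, 1.95%, and 2272 genes (14.6%) had an unadjusted p under 0.05. The count rested on some pools more than on others. It was 133 without the ZT12 library, 155 without ZT24, 169 without ZT16 and 181 without ZT28, and between 207 and 364 without any other single library. It was 72 on the first 6 libraries alone, and 73 of the 303 genes passed in each of the 8 fits that left out 1 library. Amplitudes, from mean to peak on the log2 CPM scale, had a median of 0.54 in the 303 genes, against 0.13 over all genes tested, a gap that the test itself favours. They exceeded 1 in 38 genes and were under 0.5 in 138.

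Most clock genes were rhythmic. Of 19 listed clock genes, 17 passed (1.95% of all genes did), and 14 of them in each fit that left out a library. The fitted peaks fell in the middle and later light phase for the REV-ERB genes and PAR bZIP factors, near lights off for the Per genes, in the night for Cry1 and late in the night for the activators. The 2 that did not pass were Rora, an activating receptor of Arntl (adjusted p = 0.374), and Usp2, a deubiquitinase driven by the clock (adjusted p = 0.0689).

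**Figure D1:**
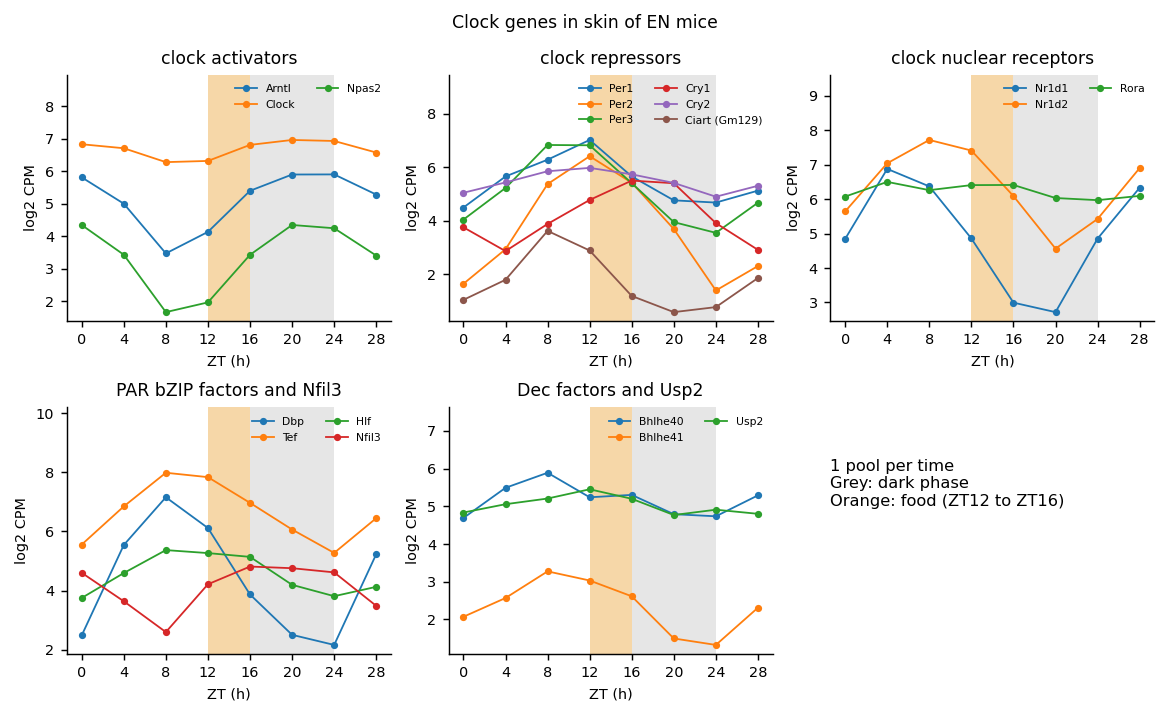
Level of the 19 clock genes in log2 CPM (vertical axis, 1 panel per group of genes) against sampling time in EN skin (horizontal axis, ZT in hours). Each point is 1 pool, grey marks darkness and orange the hours with food. Per2 has its highest point at ZT12, with 85.4 CPM, and Arntl has its lowest at ZT8, with 11.1 CPM.

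Among the nuclear receptors that repress Arntl, Nr1d1 (chr11:98767932-98775333, GRCm38) had 28.8, 118, 82.8, 29.0, 7.97, 6.58, 28.9 and 80.7 CPM at ZT0, ZT4, ZT8, ZT12, ZT16, ZT20, ZT24 and ZT28, the order of times used for all such runs of values below. It was high at ZT4, ZT8 and ZT28 and low in the night, with an amplitude of 2.09 ± 0.12 (SE) and a peak at ZT5.96 ± 0.21 h (SE; adjusted p = 2.77e-06). Its partner Nr1d2 had 49.97, 132, 211, 171, 68.2, 23.7, 43.0 and 119.9 CPM, with a later peak at ZT8.63 ± 0.28 h and an amplitude of 1.52 ± 0.12 (SE) (adjusted p = 1.40e-05).

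The PAR bZIP factors are transcription factors that carry the clock's signal to output genes. Dbp (chr7:45705088-45710203, GRCm38) had the largest amplitude of the clock genes, 2.60 ± 0.20 (SE), and 5.604, 46.6, 142, 69.3, 14.6, 5.68, 4.48 and 37.6 CPM. It was high at ZT4, ZT8, ZT12 and ZT28 and low at the other times, and peaked at ZT9.03 ± 0.28 h (adjusted p = 2.77e-06). Tef followed at ZT10.6 ± 0.37 h and Hlf at ZT11.5 ± 0.50 h, with amplitudes of 1.31 ± 0.13 (SE) and 0.84 ± 0.11 (SE). Nfil3, which binds the same D-box sites as a repressor, was lowest at ZT8, where Dbp, Tef and Hlf were highest. It had 24.3, 12.5, 6.06, 18.6, 28.1, 27.1, 24.5 and 11.2 CPM and a peak at ZT19.3 ± 0.68 h (adjusted p = 0.0093).

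Of the repressors, Per2 (chr1:91415982-91459324, GRCm38) had 3.14, 7.67, 41.5, 85.4, 43.0, 12.9, 2.64 and 4.97 CPM. The ZT8, ZT12 and ZT16 pools stood above all others, and the highest was 32.4 times the lowest (adjusted p = 3.84e-06). Per3 and Per1 peaked earlier, at ZT10.5 ± 0.31 h and ZT10.8 ± 0.44 h, against ZT12.5 ± 0.30 h for Per2, with amplitudes of 1.69 ± 0.14 (SE) for Per3 and 1.15 ± 0.13 (SE) for Per1. Cry1 had 13.5, 7.31, 14.8, 27.5, 45.5, 42.4, 15.1 and 7.55 CPM and a peak at ZT16.5 ± 0.34 h, several hours after Cry2 at ZT11.7 ± 0.45 h, and its swing was wider, with an amplitude of 1.33 ± 0.12 (SE) against 0.49 ± 0.06 (SE) for Cry2. Ciart (listed as Gm129), a further repressor, peaked at ZT9.17 ± 0.46 h, and the E-box-binding repressors Bhlhe41 and Bhlhe40 at ZT9.92 ± 0.61 h and ZT9.09 ± 0.84 h. The call of Bhlhe40 was lost without ZT8, ZT20, ZT24 or ZT28 (adjusted p up to 0.142) and that of Bhlhe41 without ZT8 (0.0539).

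The activators peaked together late in the night. Arntl (chr7:113207465-113314126, GRCm38) had 56.2, 32.1, 11.1, 17.6, 42.2, 59.7, 59.9 and 38.9 CPM, low at ZT8 and ZT12, and peaked at ZT21.6 ± 0.52 h with an amplitude of 1.17 ± 0.17 (SE) (adjusted p = 0.00154). Npas2 had a like course, with 3.17 CPM at ZT8 as its lowest and 20.4 CPM at ZT20 as its highest value and a peak at ZT22.0 ± 0.32 h (adjusted p = 0.000191). Clock moved least, with an amplitude of 0.35 ± 0.05 (SE) and a peak at ZT21.3 ± 0.47 h, and its call was lost without ZT8, ZT12, ZT20 or ZT24 (adjusted p up to 0.0795).

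Promoter windows from RefSeq (GRCm38.p6, 250 bases before to 50 after a gene's start) were matched for 10673 of the genes tested and for 209 of the 303 rhythmic ones. Clock factors are known to bind the E-box CACGTG (BMAL1 with CLOCK) and the core TAGGTCA (REV-ERB receptors), searched on both strands. Some genes have more than 1 window, and a gene was counted for a motif if any of its windows held it. The E-box was found for 11.2% of all matched genes, and for 11 of 46 rhythmic genes (23.9%) peaking from ZT8 to ZT12. The clock genes Per1, Ciart, Tef and Bhlhe41 were among these 11. The core TAGGTCA was found for 2.44% of all matched genes and for 0 of the 46. It was found for 3 of 41 rhythmic genes (7.32%) peaking from ZT20 to ZT24. Also searched, with the share of all matched genes, were the E-prime box CACGTT (6.21%), the D-box TTANGTAA (1.93%) and the cyclic AMP element TGACGTCA (3.31%). A spaced heat shock element (0.628%) and the palindromic glucocorticoid response element (0.0375%) were searched too. The D-box was found for 4 of the 46 genes (8.70%) of ZT8 to ZT12, and for 4 of 65 (6.15%) peaking from ZT12 to ZT16. The E-prime box was found for 3 of the 46 (6.52%) and for 8 of the 65 (12.3%). The higher shares from ZT8 to ZT12 were not particular to clock motifs. The CHR element TTTGAA, taken up with the mitosis genes below, was found for 12 of the 46 (26.1%), against 14.5% of all matched genes. The windows of 3 genes that peaked in the light phase, with each E-box in capitals, are shown as examples, followed by those of 2 genes that peaked at night, with TAGGTCA or its reverse complement in capitals.
Per1 promoter, chr11:69098699-69098998, plus strand: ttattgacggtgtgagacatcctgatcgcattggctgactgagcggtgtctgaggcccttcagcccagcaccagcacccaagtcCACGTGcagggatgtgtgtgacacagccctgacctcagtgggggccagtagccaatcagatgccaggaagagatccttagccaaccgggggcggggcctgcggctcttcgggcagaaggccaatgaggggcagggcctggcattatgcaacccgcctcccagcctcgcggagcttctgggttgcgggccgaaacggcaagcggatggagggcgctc
Ciart promoter, chr3:95882179-95882478, minus strand: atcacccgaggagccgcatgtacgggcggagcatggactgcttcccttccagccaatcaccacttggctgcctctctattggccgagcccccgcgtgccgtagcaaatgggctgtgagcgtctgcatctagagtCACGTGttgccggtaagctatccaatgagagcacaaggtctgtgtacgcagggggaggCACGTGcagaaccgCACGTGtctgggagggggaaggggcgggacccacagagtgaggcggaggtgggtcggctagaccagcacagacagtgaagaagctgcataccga
Tef promoter, chr15:81802423-81802722, plus strand: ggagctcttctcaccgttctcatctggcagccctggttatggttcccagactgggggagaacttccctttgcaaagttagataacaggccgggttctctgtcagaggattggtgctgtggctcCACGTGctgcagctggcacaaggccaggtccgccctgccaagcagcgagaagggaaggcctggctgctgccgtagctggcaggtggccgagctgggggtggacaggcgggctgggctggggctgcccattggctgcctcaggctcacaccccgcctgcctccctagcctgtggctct
Arntl promoter, chr7:113207261-113207560, plus strand: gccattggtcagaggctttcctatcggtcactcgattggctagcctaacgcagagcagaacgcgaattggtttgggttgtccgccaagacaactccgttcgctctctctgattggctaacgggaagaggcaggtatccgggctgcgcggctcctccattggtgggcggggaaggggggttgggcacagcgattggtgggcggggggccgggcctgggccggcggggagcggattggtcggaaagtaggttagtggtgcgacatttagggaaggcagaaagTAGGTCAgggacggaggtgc
Nfil3 promoter, chr13:52980990-52981289, minus strand: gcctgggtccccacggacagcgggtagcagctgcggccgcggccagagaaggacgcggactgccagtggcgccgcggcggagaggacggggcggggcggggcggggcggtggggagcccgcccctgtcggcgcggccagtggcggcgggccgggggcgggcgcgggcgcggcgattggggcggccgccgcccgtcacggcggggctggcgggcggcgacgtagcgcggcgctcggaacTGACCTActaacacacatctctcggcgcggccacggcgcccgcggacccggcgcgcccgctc
The window of Ciart holds 3 E-boxes, and the windows shown for Per1 and Tef 1 each. A match describes the letters only, and Dbp and Nr1d2, which peaked with these genes, had no E-box in their windows, while Cry1, which peaked at night, had one. Clock and Npas2, which peaked near Arntl, had no TAGGTCA in theirs.

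Over all 303 rhythmic genes, fitted peaks were most frequent in the hours around lights off. There were 93 genes (30.7%) with a peak from ZT12 to ZT16 and 69 (22.8%) from ZT8 to ZT12, against 16.5% and 18.3% of all genes tested. Around lights on the shares were near those of all genes, with 59 genes (19.5%) from ZT20 to ZT24 and 54 (17.8%) from ZT0 to ZT4, against 19.4% and 17.6% of all genes tested. Fewer peaked in the remaining windows, with 11 (3.63%) from ZT4 to ZT8 and 17 (5.61%) from ZT16 to ZT20, against 13.9% and 14.2% of all genes tested. Without the ZT12 library the 6 windows from ZT0 on held 33, 10, 24, 26, 16 and 24 genes, so the window from ZT12 to ZT16 held 26 in place of 93.

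**Figure D2:**
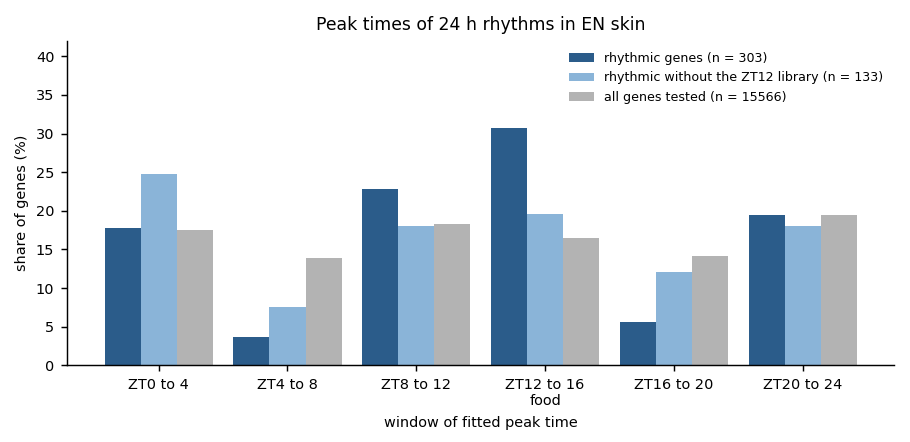
Share of genes in percent (vertical axis) by window of fitted peak time (horizontal axis) for the 303 rhythmic genes, the 133 genes that were rhythmic without the ZT12 library and all 15566 genes tested. The dark bar is highest from ZT12 to ZT16, at 30.7%, and the paler bar beside it is lower.

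Beside the clock lists, that of glucocorticoid targets had the most rhythmic members. Of 20 listed genes known to be switched on by glucocorticoid hormones, 13 were rhythmic (1.95% of all genes), among them the clock gene Per1. All 13 peaked within 3 h of their own mean, ZT12.2. Of all 20, 17 had a fitted peak within 3 h of ZT12.6, where 26.8% of all genes tested fall. For this and every later list, such a window was centred on the mean peak of the list itself. That choice favours a high share within it, so the share is no test of a common rhythm. The median amplitude of the list was 0.62. Tsc22d3, which encodes the anti-inflammatory protein GILZ, had 104, 109, 176, 650.0, 306, 121, 81.0 and 92.5 CPM. The ZT12 pool was highest and ZT16 second, before and after which no pool exceeded 176 CPM; the amplitude was 1.27 ± 0.20 (SE) (adjusted p = 0.000874). Fkbp5, a chaperone of the glucocorticoid receptor, had 60.2, 47.8, 65.1, 179, 147, 54.6, 50.4 and 42.8 CPM, with the ZT12 and ZT16 pools apart from the rest (adjusted p = 0.00396). Glul, glutamine synthetase, had 339 CPM at ZT24 as its lowest and 1099 CPM at ZT12 as its highest value, and Ddit4, an inhibitor of mTORC1, rose to 81.2 CPM at ZT12, against a median of 25.8 CPM.

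The ZT12 pool carried much of this count: 4 of the 20 genes passed without it, where 0.854% of all genes did. The model over all 24 libraries also called 4 (1.08% of all genes), and 15 passed by DESeq2 (4.34%). Tsc22d3 and Fkbp5 were among those that passed without the ZT12 pool (adjusted p = 0.00168 and 0.0225), and Glul and Ddit4 were not (0.0537 and 0.0732). In the model over 24 libraries Tsc22d3 and Glul passed (adjusted p = 0.0308 and 0.0269), and Fkbp5 and Ddit4 did not (0.118 and 0.165). The ZT12 pool was also the one with the highest adipocyte and liver marker sums, and their part in the result was not tested. Cebpd, a transcription factor of the acute phase, had 92.0 CPM at ZT12 against 23.9 CPM at the median pool. It passed the test of clock times described below but not the 24 h test (adjusted p = 0.0737).

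Genes of detoxification made a second group at lights off. Of 20 cytochromes P450 and related enzymes tested, 10 were rhythmic (1.95% of all genes), and 7 passed without the ZT12 library (0.854%). The 10 peaked within 3 h of their own mean, ZT13.9. Of all 20, 16 had a fitted peak within 3 h of ZT12.6, where 26.9% of all genes tested fall. Cyp2e1 (chr7:140763739-140774987, GRCm38), which oxidises ethanol and ketones, had 101, 125, 174, 442, 311, 139, 105 and 138 CPM. Its ZT12 and ZT16 pools were apart from all others, with an amplitude of 0.96 ± 0.13 (SE) (adjusted p = 0.000496). Aldh3a1, an aldehyde dehydrogenase, peaked at ZT14.2 ± 0.44 h with 76.3, 72.3, 95.4, 175, 139, 109, 76.4 and 68.4 CPM. Cyp2b10 had 117 CPM at ZT12 against 61.2 CPM at the median pool, and Fmo1, a flavin monooxygenase, 54.5 CPM at ZT12 against 24.6 CPM. Some of these enzymes are abundant in liver. The liver marker sum was 89.1 CPM at ZT12 and 12.6 CPM at ZT16, and Cyp2e1 had 442 CPM at ZT12 and 311 CPM at ZT16. The part of liver transcripts in the result was not tested.

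Of 20 adipocyte genes 4 were rhythmic (1.95% of all genes), and 3 of these had peaks within 3 h of ZT12.3, their own mean. Of all 20, 12 had a fitted peak within 3 h of ZT11.1, where 27.6% of all genes tested fall. Cidec, which coats and enlarges lipid droplets, had 132, 149, 226, 369.8, 251, 151, 143 and 147 CPM (adjusted p = 0.000901). It was highest at ZT12 and lowest at ZT0, with an amplitude of 0.67 ± 0.08 (SE). Lgals12, a lipid droplet galectin, peaked at ZT10.8 ± 0.57 h and Plin4, a lipid droplet coat protein, at ZT10.0 ± 0.77 h, but the call of Lgals12 was lost without ZT12 (adjusted p = 0.0824) and that of Plin4 without ZT8, ZT12, ZT16 or ZT20 (up to 0.126). The adipocyte marker sum, in which Cidec itself is counted, was highest in the same ZT12 pool, and its part was not tested. Cidec had 226 CPM and Plin4 545 CPM at ZT8, 4 h before food was given.

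Other rhythmic genes of this window came from no list. Wee1, a kinase that holds cells back from mitosis and a known clock target, had 9.67, 14.6, 26.9, 54.3, 23.2, 11.1, 13.2 and 11.7 CPM and a peak at ZT11.7 ± 0.66 h (adjusted p = 0.00154). Adcyap1r1, the receptor of the peptide PACAP, rose to 33.0 CPM at ZT12, against a median of 10.9 CPM. Slc1a5, a transporter of glutamine, peaked at ZT11.1 ± 0.52 h, Angptl2, a secreted angiopoietin-like protein, at ZT10.4 ± 0.22 h, Tspan4, a tetraspanin membrane protein, at ZT12.2 ± 0.44 h, and Cys1, a protein of primary cilia, at ZT13.9 ± 0.44 h. Angptl7, another angiopoietin-like protein, ranged widely, with 3.30 CPM at ZT24 and 71.3 CPM at ZT12, and its call was lost without that ZT12 pool (adjusted p = 0.0873). Cntfr, the receptor of ciliary neurotrophic factor, had its highest value, 24.3 CPM at ZT16, and peaked at ZT14.8 ± 0.64 h.

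**Figure D3:**
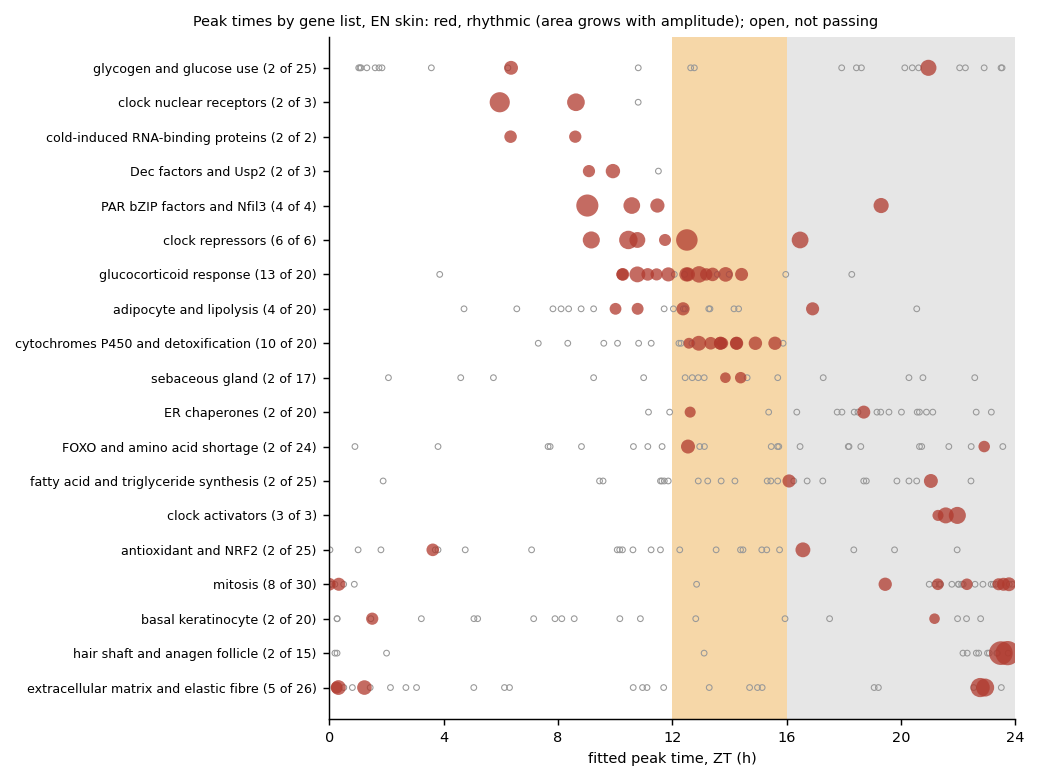
Fitted peak time in ZT hours (horizontal axis) of the tested members of each list with at least 2 rhythmic genes (vertical axis, with rhythmic and tested counts). Red points are rhythmic genes, their area growing with amplitude, and open points did not pass. Grey marks darkness, orange food. The 13 glucocorticoid targets sit within 3 h of ZT12.2.

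A smaller group peaked from ZT16 to ZT20, just after the meal. Gsta3, a glutathione transferase, had 21.3, 15.2, 14.6, 45.8, 54.0, 35.9, 27.5 and 14.97 CPM, high at ZT12, ZT16 and ZT20, with a peak at ZT16.6 ± 0.59 h (adjusted p = 0.00159). Lonrf3, a ring finger protein, peaked at ZT16.9 ± 0.48 h with 31.8 CPM at ZT16. Thrsp, which promotes fat synthesis, had 90.5, 131, 83.9, 167, 258, 163, 108 and 81.2 CPM and peaked at ZT16.1 ± 1.09 h (adjusted p = 0.0389), and G0s2, an inhibitor of the lipase ATGL, had 33.5 CPM at ZT16 against 15.5 CPM at the median pool. Both depended on that pool: without ZT16 the adjusted p was 0.334 for Thrsp and 0.257 for G0s2. Thrsp also failed without ZT12, ZT20, ZT24 or ZT28, and G0s2 without ZT28.

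Genes of glycogen storage differed in the shape of their course. Ppp1r3b, a subunit that directs phosphatase to glycogen, had 9.61, 6.59, 4.25, 4.16, 33.4, 12.1, 6.73 and 4.97 CPM. The ZT16 pool stood apart from the others, and the gene passed the test of clock times (adjusted p = 0.000807) but not the 24 h test (adjusted p = 0.0617). Ppp1r3c, its relative, had 176, 76.4, 20.9, 66.2, 118, 131, 142 and 83.6 CPM and a 24 h call (adjusted p = 0.0252) that was lost without ZT24 or ZT28 (up to 0.0701). Scd2, a fatty acid desaturase, peaked later in the night at ZT21.1 ± 0.78 h, with 185, 137, 113, 71.8, 194, 296, 208 and 128 CPM (adjusted p = 0.0131), and was not rhythmic without ZT20 (adjusted p = 0.0693). Scd genes are near copies of each other, so their split of reads is uncertain. In all, 2 of 25 genes of fatty acid synthesis and 2 of 25 of glycogen and glucose use were rhythmic (1.95% of all genes). Of 25 genes of cholesterol synthesis, 0 passed by edgeR or DESeq2, and 5 had an unadjusted p under 0.05 (14.6% of all genes).

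Protein folding genes had their highest mean level at ZT16 or ZT20, but few passed. Of 20 ER chaperones, 2 were rhythmic (1.95% of all genes) and 8 passed by DESeq2 (4.34%). The mean of the list was 0.24 above its average at ZT16 and 0.29 at ZT20, on the log2 scale, against -0.20 at ZT12. Sdf2l1, an ER chaperone cofactor, had 12.5, 7.43, 9.06, 10.01, 18.6, 21.0, 12.9 and 11.2 CPM (adjusted p = 0.0144), and was lost without ZT16 or ZT20 (up to 0.113). Herpud1, which serves ER degradation, peaked earlier at ZT12.6 ± 0.50 h and was lost without ZT12 or ZT24 (up to 0.0939). Of 20 heat shock genes, 17 had a fitted peak within 3 h of ZT18.0, where 22.2% of all genes tested fall. By edgeR 11 had an unadjusted p under 0.05 (14.6% of all genes), and 6 passed by DESeq2 (4.34%). Without the ZT12 library 4 passed (0.854%), and in the model over 24 libraries 0 passed (1.08%). Only Hspa1a passed the 24 h test on the 8 libraries (1.95% of all genes), with 40.7 CPM at ZT16 against 22.6 CPM at the median pool. Its call was lost without ZT16, ZT20 or ZT24, and its near copy Hspa1b makes it uncertain. Hspa8, the constitutive form, had its highest value, 1824 CPM at ZT16, in the same pool but did not pass (adjusted p = 0.0722).

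Some genes of the dermal matrix peaked late in the night and around lights on. Of 26 matrix and elastic fibre genes, 5 were rhythmic (1.95% of all genes), with peaks from ZT22.8 to ZT1.23. Spon2, a secreted matrix protein, had 46.8, 22.5, 9.80, 3.78, 19.6, 64.8, 71.7 and 37.0 CPM and the widest range of them, with an amplitude of 1.87 ± 0.26 (SE) (adjusted p = 0.00115). Fbn1, which forms the microfibrils of elastic fibres, had 1052, 934, 675, 317, 341, 883, 1116 and 953 CPM, lowest at ZT12 and ZT16 (adjusted p = 0.00171). Adamts4, a protease of proteoglycans, and Fbn2, the second fibrillin, peaked at ZT23.0 ± 0.66 h and ZT0.32 ± 0.54 h. The fifth gene, Eln, encodes elastin and was chosen after its values were seen; it peaked at ZT0.25 ± 0.67 h, and was lost without ZT12 (adjusted p = 0.105). Col5a3 was the only rhythmic one of 19 collagens (1.95% of all genes). It had 62.1 CPM at ZT12 and 149 CPM at ZT24 and a peak at ZT0.77 ± 0.51 h. Dermal fibroblast markers summed to between 38991 CPM at ZT4 and 74739 CPM at ZT0, with 54688 CPM at ZT12 and 51596 CPM at ZT16.

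Of 30 mitosis genes, 8 were rhythmic (1.95% of all genes). Of all 30, 28 had a fitted peak within 3 h of their mean, ZT22.8, a window that holds 28.8% of all genes tested. By edgeR 26 had an unadjusted p under 0.05 (14.6% of all genes), and 17 passed by DESeq2 (4.34%). Cdc20, which starts anaphase, had 15.7, 10.1, 6.68, 4.53, 7.08, 11.5, 13.5 and 11.8 CPM, lowest at ZT12, and peaked at ZT23.8 ± 0.32 h (adjusted p = 0.00171). Cenpf, a kinetochore protein, ranged between 12.5 CPM at ZT12 and 33.3 CPM at ZT0, and Anln, a scaffold of the dividing cell's ring, between 22.9 CPM at ZT12 and 43.1 CPM at ZT24. Ccnb1, cyclin B1, peaked at ZT0.33 ± 0.54 h and was lost without ZT12 (adjusted p = 0.0816). The list had 7 calls without the ZT0 pool (2.08% of all genes), in which hair follicle markers were high, and 3 without ZT12 (0.854%).

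Of 28 genes of DNA replication, 1 was rhythmic (1.95% of all genes). The mean fitted peak of the list was ZT12.7, with 19 of the 28 within 3 h of it, a window that holds 26.7% of all genes tested. Ccne2, cyclin E2, was the one that passed, with 8.88 CPM at ZT12 and 4.48 CPM at ZT24 (adjusted p = 0.041), and it failed without any 1 of ZT0, ZT4, ZT12, ZT16, ZT24 or ZT28. Cdkn1a, the cell cycle inhibitor p21, was the 1 rhythmic gene of 20 p53 targets (1.95% of all genes). It peaked at ZT19.4 ± 0.79 h, and its call was lost without any 1 of 6 libraries (all but ZT0 and ZT28). A single call says little about either list.

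The window of Cdc20 is shown because its mitosis group carries one motif often. The CHR element TTTGAA, known from genes of mitosis and searched on both strands, was found for 20 of 26 matched mitosis genes (76.9%). It was found for 14.5% of all matched genes. It stands in capitals here.
Cdc20 promoter, chr4:118437294-118437593, minus strand: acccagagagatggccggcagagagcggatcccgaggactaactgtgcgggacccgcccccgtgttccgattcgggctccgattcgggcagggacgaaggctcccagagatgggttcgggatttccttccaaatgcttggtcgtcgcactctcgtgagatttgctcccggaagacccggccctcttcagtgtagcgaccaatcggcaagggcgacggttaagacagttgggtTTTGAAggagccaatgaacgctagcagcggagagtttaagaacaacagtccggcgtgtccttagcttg
This is a count of letters near the start of these genes, whatever their rhythm.

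**Figure D4:**
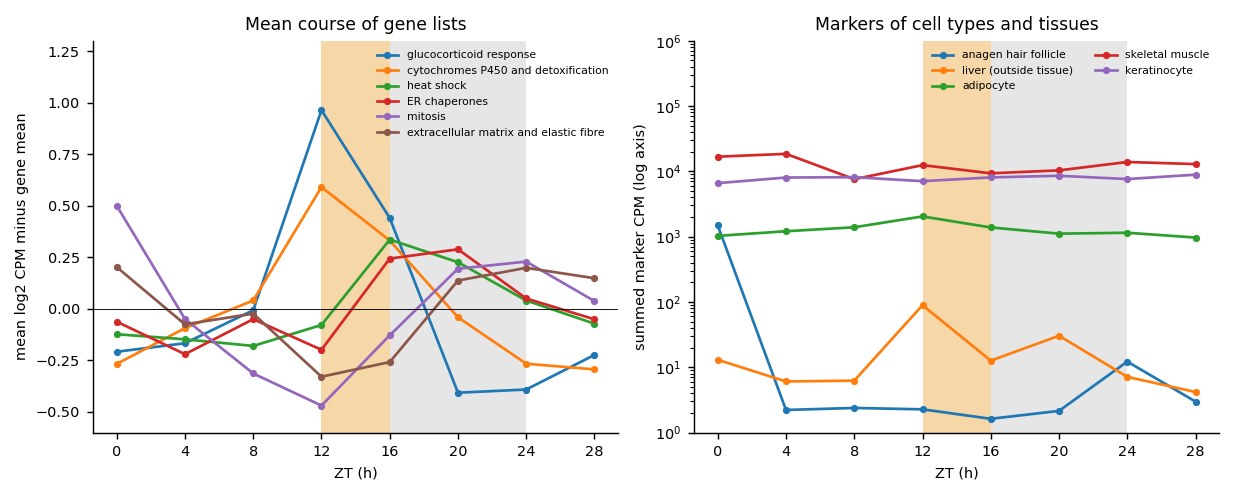
Left, the mean course of 6 gene lists over tested members, as log2 CPM minus each gene's mean (vertical axis), against ZT in hours. Right, summed CPM of the markers of 5 tissues (vertical axis, log scale) against ZT in hours. Each point is 1 pool, grey marks darkness and orange food. The glucocorticoid list reaches 0.96 at ZT12, where the liver sum is 89.1 CPM, and the hair follicle sum is 1486 CPM at ZT0.

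Further genes of the hours around lights on were Cxcl14, a chemokine of skin, with 88.7, 63.4, 37.1, 38.3, 58.8, 105, 117 and 84.2 CPM (adjusted p = 0.00119), and Slc38a4, an amino acid transporter, with a peak at ZT1.58 ± 0.50 h. Myod1, a muscle transcription factor, had 3.20, 1.44, 0.623, 2.52, 5.76, 9.52, 7.52 and 2.78 CPM and peaked in the night at ZT19.7 ± 0.70 h (adjusted p = 0.0105), but was lost without ZT20 (0.0663). Atf5, a stress-responsive transcription factor, peaked at ZT22.9 ± 0.73 h and was lost without ZT12 or ZT24. Lgr5, a stem cell marker of the hair follicle, and Itga3, an integrin of basal keratinocytes, peaked at ZT1.50 ± 0.93 h and ZT21.2 ± 0.62 h, and each was lost without any 1 of 6 libraries. The hair keratins Krt25 and Krt71 carried the largest fitted amplitudes of all rhythmic genes, but they rest on 1 pool. Krt71 had 667 CPM at ZT0 and 4.42 CPM at ZT24, and no more than 0.779 CPM at any other time, and without the ZT0 library its adjusted p was 0.127 and that of Krt25 0.066.

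Several further rhythmic genes had fitted peaks in the light phase. Cirbp and Rbm3, RNA-binding proteins induced by mild cold, both passed, but neither did on the first 6 libraries or in the model over 24 libraries (adjusted p = 0.0747 and 0.0947 in the model). Cirbp had 23.6, 37.4, 36.6, 30.0, 15.6, 21.0, 25.5 and 32.8 CPM, lowest at ZT16, and peaked at ZT6.34 ± 0.62 h (adjusted p = 0.00982). Rbm3 had 76.3, 87.9, 120.3, 123, 68.7, 57.3, 70.4 and 97.8 CPM and peaked at ZT8.61 ± 0.53 h (adjusted p = 0.00504). Pfkfb3, an enzyme that drives glycolysis, had 51.2, 115, 80.7, 54.8, 41.8, 27.4, 54.3 and 68.8 CPM and peaked at ZT6.36 ± 0.73 h (adjusted p = 0.00928). Rasd1, a small G protein induced by glucocorticoids, had 1.96 CPM at ZT20 and 12.6 CPM at ZT8, with an amplitude of 1.32 ± 0.15 (SE). Cpt1a, the gatekeeper of fatty acid oxidation in mitochondria, had 57.1 CPM at ZT20 and 102 CPM at ZT8. It was the only one of 23 fasting genes to pass (1.95% of all genes). Its call failed without ZT8, ZT16, ZT20 or ZT24 (adjusted p up to 0.202). Clca2, a membrane protein of keratinocytes, peaked at ZT7.71 ± 0.15 h, and failed without ZT20 (0.0583). Nqo1, a quinone reductase, peaked at ZT3.62 ± 0.74 h, and failed without any 1 of ZT8, ZT16, ZT20, ZT24 or ZT28. The sebaceous genes Dgat2l6 and Awat1, enzymes of wax and lipid ester synthesis, peaked later, at ZT14.4 ± 0.63 h and ZT13.9 ± 0.56 h, and both failed without ZT12 or ZT16, Awat1 also without ZT24.

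Of 39 gene lists, 14 had no rhythmic member by this test. In nucleotide excision repair, which removes UV damage from DNA, 0 of 24 genes passed by edgeR or DESeq2. Of the 24, 2 had an unadjusted p under 0.05 (14.6% of all genes). Xpa, the repair factor that verifies the damage, had 7.54, 8.57, 8.21, 8.12, 4.65, 5.08, 7.32 and 7.62 CPM, with a fitted amplitude of 0.40 ± 0.10 (SE) and a peak at ZT5.98 ± 0.92 h (adjusted p = 0.191). All 40 ribosomal protein genes had fitted peaks within 3 h of their mean, ZT12.3, a window that holds 27.1% of all genes tested. Their median amplitude was 0.21. A window centred on a list's own mean favours such a share. By edgeR 0 passed and 14 had an unadjusted p under 0.05 (14.6% of all genes), and 5 passed by DESeq2 (4.34%). Rpl37 was an example, with 208 CPM at ZT12 and 135 CPM at ZT20 (adjusted p = 0.141). All 20 fast muscle genes had fitted peaks within 3 h of their mean, ZT1.57, a window that holds 26.8% of all genes tested. Of these 0 passed by edgeR and 1 by DESeq2 (4.34% of all genes), and 5 had an unadjusted p under 0.05 (14.6%). Casq1, the calcium store protein of muscle, ranged between 168 CPM at ZT8 and 371 CPM at ZT4. The muscle marker sum, in which the fast muscle gene Acta1 is counted, was highest in the same hours, at ZT0 and ZT4, and its part was not tested. The remaining lists with no call included oxidative phosphorylation, cornified envelope, melanocyte and interferon genes.

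The repeated clock times allowed the daily return to be measured without a test, since each time had 1 pool. Over all genes, the pools of ZT24 and ZT0 differed by a median size of 0.16 on the log2 scale, the fifth smallest of 28 pairs of EN libraries. The pools of ZT28 and ZT4 differed by 0.19, rank 24 of the 28. On this scale they differed by more than most pairs of pools at different clock times. On the deposited RPKM values the difference was 0.168, for which no rank is given here. Pairs 4 h apart in clock time had a median of 0.17 and pairs 12 h apart a median of 0.19. Among the 303 rhythmic genes, the pairs of the same clock time differed least of all 28, by 0.15 for ZT24 and ZT0 and 0.20 for ZT28 and ZT4. The medians were 0.29 at 4 h, 0.60 at 8 h and 0.56 at 12 h. These genes were chosen with the same libraries by a 24 h curve, which has equal values at equal clock times. The choice itself favours this order, so it is no measure of the daily return.

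**Figure D5:**
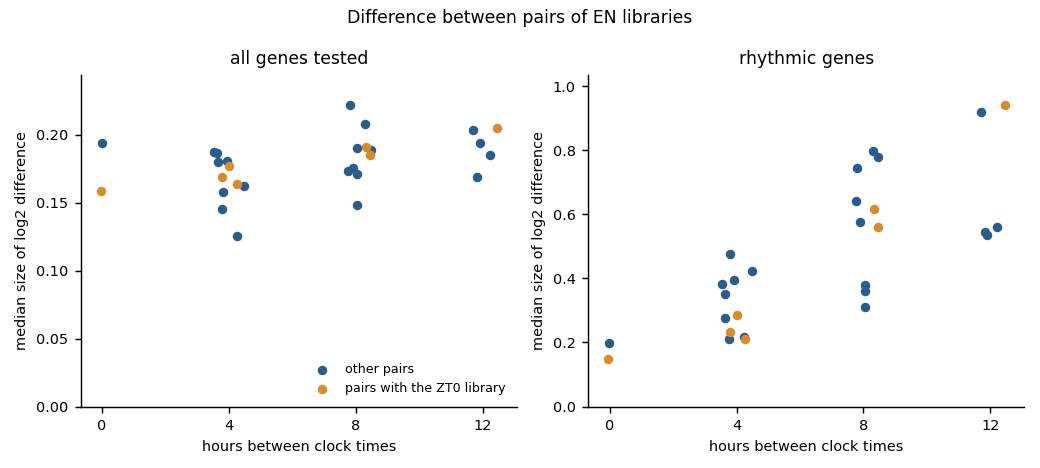
Median size of the log2 difference between 2 EN libraries (vertical axis) for the 28 pairs, by the hours between their clock times (horizontal axis), over all genes tested and over the 303 rhythmic genes. Each point is a pair, with a small sideways shift for visibility, and orange points include the ZT0 library. Over the rhythmic genes, pairs at 0 h lie at 0.15 and 0.20, below the medians of 0.29 at 4 h, 0.60 at 8 h and 0.56 at 12 h. The choice of these genes by a 24 h curve in the same libraries favours that order.

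None of the 19 clock genes differed by over 2-fold between ZT24 and ZT0 or between ZT28 and ZT4, and of all genes 1.69% and 1.31% did. The median size of the difference was 0.15 for clock genes and 0.16 for all genes at ZT24 over ZT0, and 0.25 for clock genes and 0.19 for all genes at ZT28 over ZT4. The median signed difference of clock genes was -0.10 for ZT24 over ZT0 and -0.25 for ZT28 over ZT4, and 16 of the 19 genes were lower at ZT28 than at ZT4. Nr1d1 had 80.7 CPM at ZT28 and 118 CPM at ZT4, and 28.9 CPM at ZT24 and 28.8 CPM at ZT0. Arntl was the highest of the clock genes at ZT28 over ZT4, by 0.28, and Per2 the lowest, by -0.62. At ZT24 over ZT0 the lowest was Bhlhe41, by -0.72.

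Hair and slow muscle genes were among those that differed most. Past 2-fold were 249 of 14703 genes with a mean of at least 1 CPM (1.69%) between ZT24 and ZT0, 76 higher and 173 lower at ZT24, and 192 (1.31%) between ZT28 and ZT4, 115 higher and 77 lower at ZT28. Of hair genes, 13 of 15 measured were over 2-fold lower at ZT24. Tchh, trichohyalin of the inner root sheath, had 23.1 CPM at ZT24 and 1225 CPM at ZT0, and S100a3, a calcium-binding protein of the hair cuticle, 1.91 CPM at ZT24 and 117 CPM at ZT0. At ZT28, 4 of 9 slow muscle genes were over 2-fold higher than at ZT4, among them Myh7, slow myosin, with 10.9 CPM at ZT28 and 2.52 CPM at ZT4, and Myl3, a slow myosin light chain, with 1.19 CPM at ZT28 and 0.18 CPM at ZT4. Ska1, a spindle protein, had 1.32 CPM at ZT28 and 0.18 CPM at ZT4, where counts are few. Rrad, a small G protein of muscle chosen after its values were seen, had 37.1 CPM at ZT24 and 2.13 CPM at ZT0. A term for the second day beside the 24 h curve passed for 0 genes by edgeR or DESeq2, with 799 genes (5.13%) at an unadjusted p under 0.05.

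A test of any difference between the 6 clock times, which needs no smooth curve but has 2 residual degrees of freedom, called 165 genes (1.06%). Of these, 122 were also rhythmic and 43 were not. Pck1, the key enzyme of glucose and glycerol synthesis, was one of the 43, with 87.2, 133, 199.7, 259.7, 56.7, 49.2, 111 and 97.5 CPM; it climbed through the light phase and was low at ZT16 and ZT20 (adjusted p = 0.000825). Fam13a, a gene linked to fat cells, was another, with 89.2 CPM at ZT12 and 33.1 CPM at the median pool. The liver transcripts Alb (serum albumin) and Apob (apolipoprotein B) also passed, with 10.8, 5.03, 4.93, 71.8, 8.04, 24.0, 6.40 and 3.38 CPM for Alb and 1.47, 0.42, 0.113, 15.5, 1.25, 5.68, 0.528 and 0.397 CPM for Apob. Their high pools were ZT12 and ZT20, the pools with the highest liver marker sums, in which Alb itself is counted. Leaving out ZT0, ZT4, ZT24 or ZT28, the only libraries this test can spare, gave 275, 559, 376 and 752 calls.

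A 12 h term added to the daily curve passed for 0 genes by edgeR, with 862 genes (5.54%) at an unadjusted p under 0.05 and 37 called by DESeq2. The smallest p belonged to Pdk4, the kinase that shuts down glucose oxidation in fasting, with 415, 323, 94.1, 241, 125, 52.6, 233 and 237 CPM (adjusted p = 0.0586). It was low at ZT8 and ZT20 and higher at ZT12 between them. Trim63, a ubiquitin ligase of muscle wasting, had a like course, with 70.5, 44.2, 18.1, 58.6, 47.2, 27.7, 43.4 and 38.7 CPM (adjusted p = 0.16). Without the ZT4 library 64 genes passed, and 0 to 7 without another.

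Set against the other feeding groups in one model over 24 libraries, 63 of 16287 genes (0.387%) had a different rhythm in EN and ED and 53 (0.325%) in EN and MD. The count against MD was 32 without the ZT0 library of EN. Clock genes were among them, 9 of 19 against ED and 11 of 19 against MD. Dbp peaked at ZT9.03 in EN, with an amplitude of 2.60, against 1.75 at ZT12.4 in ED and 1.98 at ZT4.10 in MD. Fitted amplitudes were larger in EN than in ED for all 19 clock genes, and than in MD for 17 of 19; amplitude alone was not tested.

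Genes outside the clock differed too. Cyp2e1 had a fitted amplitude of 0.96, peaking at ZT12.9, in EN, against 0.45 at ZT23.4 in ED and 0.50 at ZT4.16 in MD (adjusted p = 0.000141 and 9.32e-05). Gsta3 had 0.96 at ZT16.6 in EN, against 0.39 at ZT5.81 in ED and 0.57 at ZT9.45 in MD (0.000804 and 0.00298). Cidec had 0.67 at ZT12.4 in EN, against 0.25 at ZT1.23 in ED and 0.15 at ZT5.90 in MD (0.00328 and 0.0372). In all 3 the EN curve was the largest of the groups. Scd2 was different, with 0.79 at ZT21.1 in EN, against 1.16 at ZT8.08 in ED and 0.63 at ZT12.7 in MD (0.000559 and 0.0347). For Cdc20, of mitosis, no difference passed: it had 0.78 at ZT23.8 in EN, against 0.63 at ZT23.3 in ED and 0.50 at ZT21.0 in MD (0.873 and 0.279).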

How the data were processed

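RNA sequencing of whole back skin gave 1 library per group and sampling time. The authors deposited whole-number counts with exon, intron and antisense rows for each gene model, without normalization, and a table of RPKM values, per the file headers; its file name refers to cqn. The submitters' processing notes name TopHat2, SAMtools, HOMER and the mouse build mm10 but no version. The sources used here do not give the program that counted the reads or its handling of strand and multiple matches. Values of genes with near-identical copies or overlapping antisense genes are therefore uncertain, although the kit was stranded per the labels. Each column name was a library's title.

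Exon counts were used. Where symbols repeated, the row with most counts stood for the gene (29758 symbols). Genes were filtered with filterByExpr (minimum count 10, minimum total 15) and scaled by TMM in edgeR 4.0.16 (R 4.3.3). The 24 h test was a quasi-likelihood F test with 5 residual degrees of freedom. Adjusted p-values are Benjamini-Hochberg over all genes tested. Amplitude and peak with standard errors came from least squares on log2 CPM with a prior count of 2. The clock-time, 12 h and day tests had 2, 3 and 4 residual degrees of freedom, and the comparison of groups 15. Alternatives used DESeq2 1.42.0 and limma 3.58.1, and limma was run on log2(RPKM + 0.1) of the deposited table, whose values are alike in distribution between libraries. Totals of 13751005 to 26316851 counts per library set the precision, and counting error covers reads only.

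Named genes were the clock lists, the 6 genes with the smallest p in each 4 h window of peak time, the 12 with the largest amplitude, up to 4 per other list by p, the 8 with the largest difference in each repeated pair, and the 8 with the smallest p in the 12 h and clock-time tests, and some were left out; 1 clock gene is not reported here and is in no list count. Members and lists were chosen with earlier results of these data known. Some alternatives were chosen after seeing the data: the fits without ZT0 and ZT4, those that left out a library in the clock-time, 12 h, day and 24-library fits, and the counts of list members without ZT12, by limma, by another scaling and on the first 6 libraries. Coordinates of genes were taken by symbol from an annotation of GRCm38, which is mm10 in sequence. Promoters are from RefSeq (GRCm38.p6).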

Additional observations from a re-analysis of the deposited data

Results flagged for a closer look

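Some library measures of EN had 1 value far from the others, by Dixon's ratio of the gap to the whole range set against its 95% critical value. The ratio was 0.993 for the summed hair follicle markers (high at ZT0), 0.692 for liver markers (high at ZT12), 0.68 for melanocyte markers (high at ZT0), 0.605 for adipocyte markers (high at ZT12) and 0.72 for total exon counts (high at ZT20). Among departures from the fitted 24 h curve, Tchh (0.601) and S100a3 (0.611) had an outlying ZT0 pool, and Ska1 (0.575) an outlying ZT4 pool. Chance alone flags about 1 in 20 groups. Checked were 13 marker sums, 4 library measures and the departures of 95 genes, of which these 3 were flagged. The number of gene flags was thus within that rate. The flags of Tchh and S100a3 fell in the ZT0 pool, which also had the high hair follicle markers. They are therefore not independent, and the rate cannot decide whether they arose by chance.

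The rhythms of several named genes differed between EN and another feeding group in the model over 24 libraries, given here with edgeR adjusted p-values. Against ED these were the clock genes Arntl (0.0356), Npas2 (0.0297), Per2 (0.0335), Per3 (2.59e-05), Cry1 (0.00433), Nr1d1 (4.05e-05), Nr1d2 (0.000141), Dbp (7.4e-05) and Tef (0.00487). Of lipid and glycogen genes they were Cidec (0.00328), Lgals12 (0.0139), G0s2 (0.0237), Cpt1a (0.0266), Scd2 (0.000559), Thrsp (0.0133), Ppp1r3c (0.0453) and Ppp1r3b (0.00433). Of detoxification and protein folding they were Cyp2e1 (0.000141), Aldh3a1 (0.0267), Gsta3 (0.000804), Sdf2l1 (0.00516), Hspa8 (0.0335) and Manf (0.0159), which encodes a secreted ER stress protein. The others were Rasd1 (0.00297), Clca2 (0.0324), Myod1 (0.0361), Lonrf3 (0.0152), Cntfr (0.0145) and Atf5 (0.0297).

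Against MD the clock genes were Arntl (0.00562), Npas2 (0.000283), Per2 (0.011), Per3 (1.62e-07), Cry1 (8.86e-05), Cry2 (0.0464), Nr1d1 (1.77e-06), Nr1d2 (2.26e-07), Dbp (2.26e-07), Tef (9.32e-05) and Hlf (0.0147). The matrix genes Fbn1 (0.00333) and Fbn2 (0.0464) were among the rest. These also held Cyp2e1 (9.32e-05), Cidec (0.0372), Lgals12 (0.00905), Scd2 (0.0347), Ppp1r3c (0.00649), Gsta3 (0.00298), Cirbp (0.0224), Slc38a4 (0.00677), Slc1a5 (0.0224), Tspan4 (0.0397), Angptl2 (0.00333), Adcyap1r1 (0.0397), Cdkn1a (0.00649) and Atf5 (0.0372).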

How the results depend on the processing

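The count of rhythmic genes was 303, and became 457 with no filter, 676 by DESeq2 (300 of the 303 shared), 72 on the first 6 libraries (71 shared), 176 in the model over 24 libraries (140 shared), 91 in that model without ZT0, 532 with ZT0 and ZT4 left out, and 133 to 364 without 1 library. The clock-time count of 165 became 301 with no filter, 256 by DESeq2, 55 by limma on RPKM and 275 to 752 without 1 library. The 12 h count of 0 became 16 with no filter, 37 by DESeq2 and 0 to 64 without 1 library, and the day count of 0 became 1 with no filter and 0 to 2 without 1 library. With the sampling time as a replicate block, 118 genes differed between EN and ED (63 unblocked) and 96 between EN and MD (53 unblocked); DESeq2 gave 268 and 239, and 65 and 32 genes differed without the ZT0 library of EN. These blocks pair libraries by time of day, not by animal. The median difference of ZT28 and ZT4 was 0.168 on RPKM, against 0.194. The causes were not tested. Of the 74 rhythmic genes named, 44 passed without any 1 library and 30 failed without at least 1. With 5 residual degrees of freedom and 1 pool per time, rhythms of small amplitude can be missed.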
